A study of Oryza sativa with 6 samples.

Results

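The comparison described here set seedlings labelled OsRDR3 knock-down against wild-type seedlings, all 5 weeks old and of the indica cultivar Pusa Basmati 1 of rice. Its members are all 4341 loci listed in the authors' deposited table for this contrast, out of 6922 loci listed for either transgenic line of the study. Each group had 2 libraries of total RNA, and another 2 libraries, from plants over-expressing OsRDR3, were compared by the authors with the same wild type. The labels name no construct, promoter or number of independent lines for the transgenic plants, and do not say whether libraries of a group came from separate plants. The authors' p-values therefore measure at most the spread between these libraries, which may be technical.

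RNA-dependent RNA polymerases copy single-stranded RNA into double-stranded RNA, which Dicer-like enzymes cut into small RNAs. In plants those small RNAs guide cleavage of matching transcripts and methylation of matching DNA, and the pathway acts against viruses and transposons. OsRDR3 belongs to the gamma class of plant polymerases, whose roles are less well known than those of RDR1, RDR2 and RDR6.

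The table gives 1 FPKM value per group and locus, a number of fragments scaled by transcript length and library size, so that no value carries a spread between libraries. Loci were listed at an unadjusted p of at most 0.05, and a locus is called here where its q in the authors' deposited table was under 0.05. "Rose" and "fell" are used for called loci only. The number of loci tested was estimated from the ratio of q to p in the authors' deposited table as 17618, at which 89.7% of the p levels gave whole ranks. On that estimate the listed loci made up 24.6% of those tested, and the called loci 13.4%. Among listed loci 54.3% were called, 17.6% as higher and 36.7% as lower, and these shares are the background for the counts of every gene group below. Seedlings were sampled as bulk RNA, so fewer cells of a type and less RNA per cell cannot be told apart.

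The targeted gene was checked first. BGIOSGA002194 is annotated as an RNA-dependent RNA polymerase, although the table does not pair it with the symbol OsRDR3. It spans 5687015 to 5701037 on chromosome 1 in the table's own coordinates, whose build the sources used here do not name. Its level was 0.190 FPKM in wild type but 69.5 FPKM under the knock-down label, which is the highest log2 ratio of the table at 8.52. With a pseudocount of 1 the log2 ratio was 5.89. If this locus is the target, its level goes against the label. Whether the reads came from the gene itself or from a construct cannot be told from pooled FPKM. The directions below are those of the libraries labelled knock-down, and are not read as effects of a loss or a gain of the gene. BGIOSGA009008, the other locus with this protein name, rose from 4.40 to 7.63 FPKM. No further locus in the table carried that name.

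Beyond the polymerase, lower loci outnumbered higher ones. Of 2358 called loci, 766 rose and 1592 fell, and at 2-fold or more the counts were 505 and 760. Large changes leaned the other way, since 178 loci rose and 125 fell by 4-fold or more, and 17 rose and 6 fell by 16-fold or more. The median log2 ratio was 1.29 among loci that rose and -0.98 among loci that fell. With a pseudocount of 1, which damps ratios of low values, these medians were 0.89 and -0.81, and the range over all listed loci narrowed from between -5.88 and 8.52 to between -3.88 and 5.89. Changes under 2-fold accounted for 1093 of the called loci. The smallest log2 ratio that was called was 0.46 in size.

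**Figure D1:**
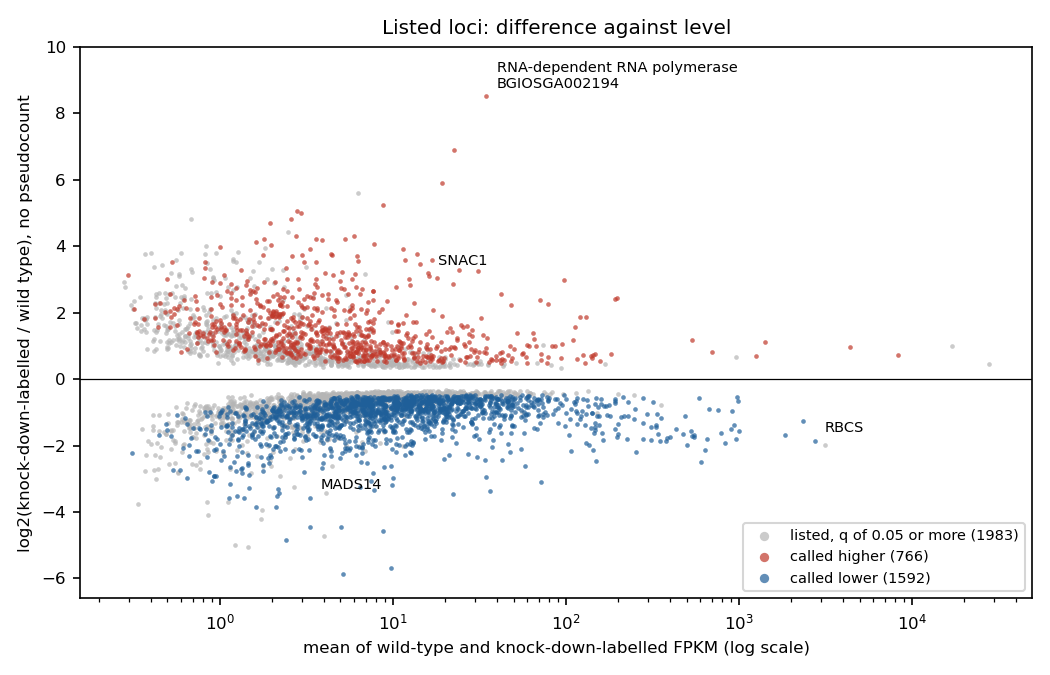
Log2 ratio of the libraries labelled knock-down over wild type, without pseudocount, against the mean FPKM of both groups on a log scale, with 1 point per listed locus (red called higher, blue called lower, grey listed but not called). No point lies near 0 because loci were listed at p of at most 0.05, and the polymerase locus BGIOSGA002194 stands at 8.52.

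Over all listed loci, the share of called loci that fell grew with expression level. Below 1 FPKM, taken as the mean of both groups, 64 of 414 listed loci rose and 39 fell, with a median log2 ratio of 1.12. From 1 to 5 FPKM the counts were 347 and 435 of 1702, and from 5 to 20 FPKM they were 253 and 697 of 1556. From 20 to 100 FPKM, 81 rose and 316 fell of 532. At 100 FPKM and over 21 rose and 105 fell of 137, with a median log2 ratio of -1.04. The pseudocount of 1 brought the median of the lowest class to 0.40 and left that of the highest at -1.03. Loci that rose had a median mean level of 4.43 FPKM and loci that fell 9.20 FPKM. Of the called loci, 235 were under 1 FPKM in wild type and 178 under 1 FPKM in the libraries labelled knock-down, and their ratios rest on at least 1 small value.

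At 100 FPKM and over, most of the loci that fell were genes for the plastid, the organelle that houses photosynthesis and much of amino acid, lipid and pigment synthesis. Among 601 listed loci with a plastid term as cellular component, 52 rose and 348 fell, or 57.9% lower. Summed over these loci, wild type held 60376 FPKM and the libraries labelled knock-down held 25582 FPKM. At 100 FPKM and over, 71 of 76 plastid loci fell and 3 rose, with a median log2 ratio of -1.36. From 20 to 100 FPKM, 114 plastid loci and 202 other loci fell. Among the other 3740 loci 714 rose and 1244 fell, which is 19.1% and 33.3%. At 100 FPKM and over, 18 of those rose and 34 fell out of 61. From 1 FPKM up, the median log2 ratio of these other loci hardly changed by class, at -0.59, -0.56, -0.56 and -0.59. Listing left out ratios near 0, so these medians say little about direction. In the same classes, 677 of 1584, 384 of 1328, 99 of 366 and 22 of 61 of these other loci were higher, called or not. The share of them called in either direction climbed with level, from 24.9% under 1 FPKM to 85.2% at 100 FPKM and over. The split by plastid term was made after the data were seen.

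**Figure D2:**
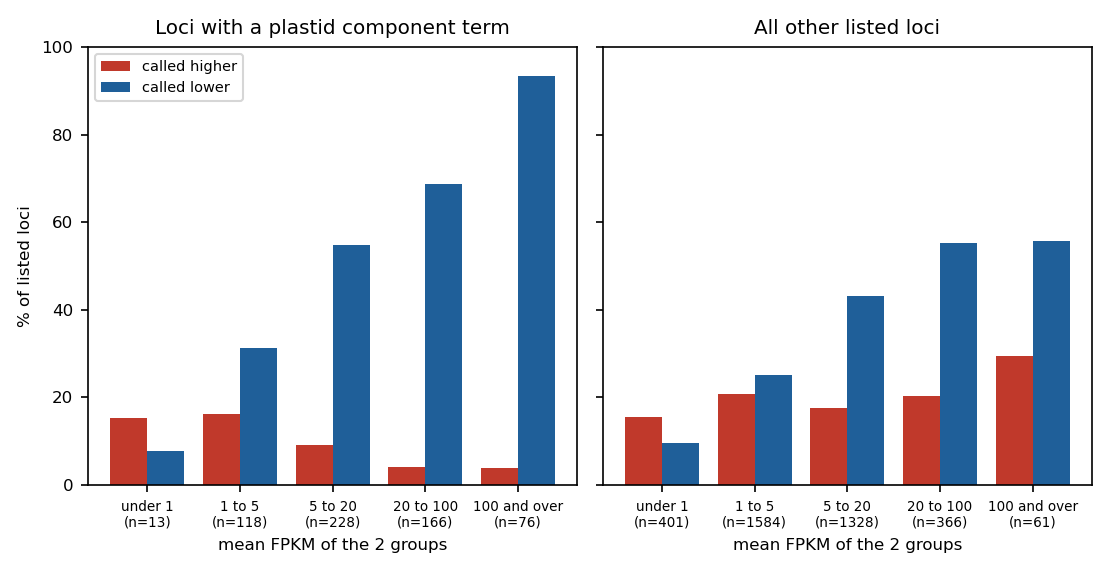
Percent of listed loci called higher (red) and lower (blue) in 5 classes of mean FPKM, for loci with a plastid component term (left) and all others (right), with the number of listed loci under each class. In the plastid loci the share called lower climbs from 7.69% to 93.4% across the classes. In the others it climbs from 9.48% to 55.2% at 20 to 100 FPKM and is 55.7% in the highest class.

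Structural RNAs were higher in sum, opposite to the plastid transcripts. The 21 listed loci named for ribosomal, spliceosomal, nucleolar or signal recognition particle RNA went from a sum of 47990 FPKM in wild type to 77639 FPKM. Of these, 10 rose and 3 fell. PLANT_SRP, named for the signal recognition particle RNA that takes part in protein export, rose from 52.3 to 191 FPKM. A locus named SNOZ112, after a small nucleolar RNA, rose from 326 to 743 FPKM. Among the 9 small subunit ribosomal RNA names 3 rose and 3 fell, and their sum was lower, from 295 to 232 FPKM. The higher sum thus lay in the other 12 names, which went from 47695 to 77407 FPKM. All listed loci other than these 21 went from a sum of 109376 FPKM to 63036 FPKM. FPKM is scaled by transcript length, so sums of FPKM are not shares of a library's fragments. Over all listed loci the sum was 157366 for wild type against 140675 for the libraries labelled knock-down. Whether the rise of these RNAs had a part in the fall of other loci was not tested.

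The 10 largest rises among named loci included 3 peroxidases and a protease inhibitor. After the polymerase came the peroxidase BGIOSGA021076, of a family of secreted heme enzymes that use hydrogen peroxide, which rose from 0.451 to 17.1 FPKM. RBBI3.3, a Bowman-Birk inhibitor that blocks trypsin-like proteases, rose from 2.58 to 31.2 FPKM. Peroxidase BGIOSGA014040 rose from 1.80 to 21.8 FPKM. PXG, a peroxygenase that oxidises unsaturated fatty acids, rose from 0.414 to 6.23 FPKM. The carboxypeptidase BGIOSGA020441 rose from 0.175 to 5.01 FPKM. BGIOSGA001967, named zinc inducible protein, rose from 60.4 to 323 FPKM and was the largest named rise at 100 FPKM and over. Its neighbour BGIOSGA001968 was assembled with it into 1 Cuffmerge gene and rose from 61.4 to 333 FPKM, so the pair may share reads and counts as 1 observation.

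The 10 largest falls among named loci held 3 chlorophyll a-b binding proteins and 7 loci of other kinds. Glutamyl-tRNA reductase BGIOSGA031606, the first committed enzyme of tetrapyrrole and so of chlorophyll synthesis, fell from 101 to 16.3 FPKM, a log2 ratio of -2.62. Metallothionein BGIOSGA005278, a small metal-binding protein, fell from 72.9 to 13.4 FPKM. Alcohol dehydrogenase family-3 locus BGIOSGA034308 fell from 35.1 to 7.28 FPKM, while in the over-expression table the values were 36.6 for wild type and 56.9 FPKM for over-expression. Here and below, over-expression values are quoted for a few loci only. Directions over the 1714 loci listed in both comparisons were not counted. Lipoxygenase BGIOSGA006958, of the family that starts oxylipin synthesis, fell from 15.3 to 2.46 FPKM. The kinase BGIOSGA002159 fell from 17.8 to 2.26 FPKM, the largest named fall from 5 to 20 FPKM. MADS14, which promotes the floral transition in rice, fell from 6.18 to 0.520 FPKM.

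**Figure D3:**
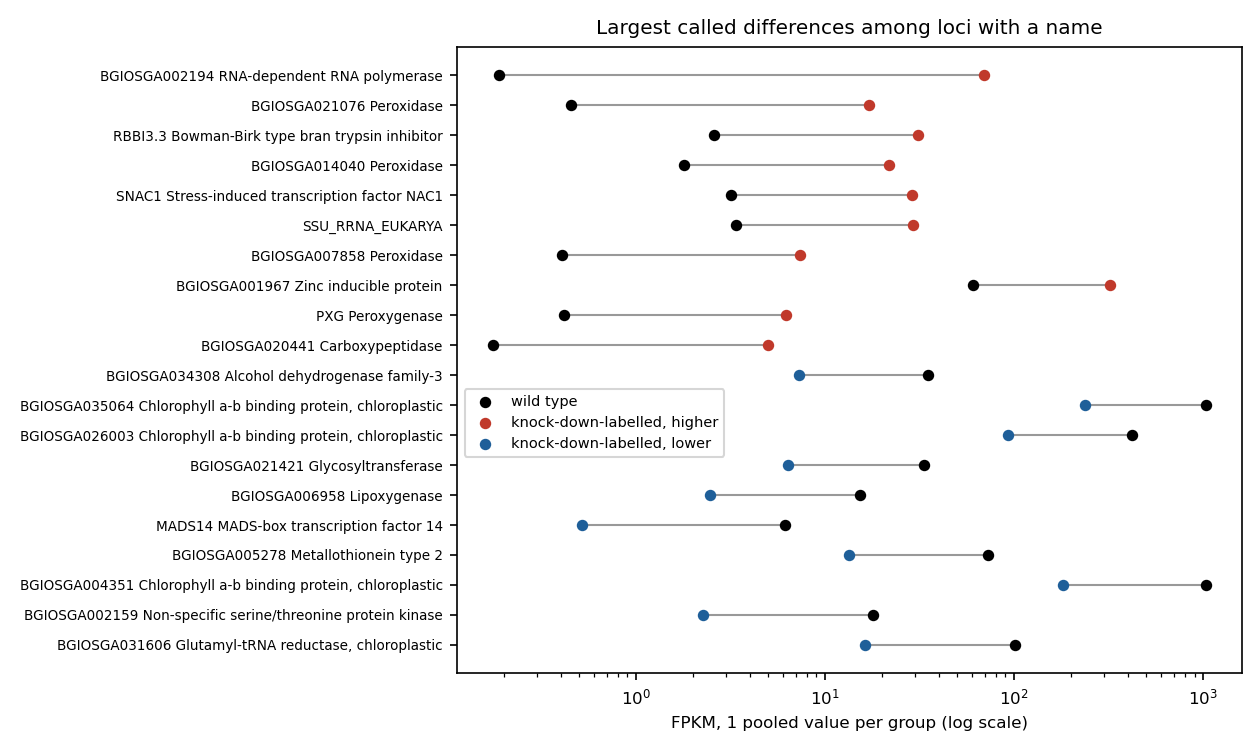
FPKM of the 10 largest called rises and 10 largest called falls among loci with a symbol or protein name, ranked by log2 ratio with a pseudocount of 1, on a log scale with 1 pooled value per group (black wild type, red or blue the libraries labelled knock-down). Several rises start below 1 FPKM in wild type, as for the polymerase at 0.190 FPKM, while the chlorophyll a-b binding protein loci among the falls start from 421 FPKM or more.

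Several of the widest changes had no protein name. BGIOSGA006201 rose from 0.382 to 45.2 FPKM and BGIOSGA017285 from 0.630 to 37.8 FPKM, and neither carried a Gene Ontology term. BGIOSGA028289, with protein kinase and membrane terms, fell from 10.2 to 0.174 FPKM, the lowest log2 ratio of the table at -5.88. BGIOSGA017254, with a hydrolase term, fell from 19.2 to 0.370 FPKM. In the over-expression table, whose wild-type libraries are the same, BGIOSGA028289 stood at 10.7 and 4.88 FPKM and BGIOSGA017254 at 20.02 and 4.32 FPKM. Of all listed loci, 766 had a protein name, 2909 were called uncharacterized and 666 had no protein entry. Loci with a protein name were called lower in 46.0% of cases, uncharacterized loci in 35.6% and loci with no entry in 30.5%. The unnamed loci given here were singled out, as beyond 16-fold, after their values were seen.

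Gene Ontology terms with at least 20 listed loci numbered 191, and the median log2 ratio was below 0 in 175 of them and above 0 in 16. Extracellular region had the highest median, at 1.33, with 20 of 44 loci higher and 6 lower. Dioxygenases that use 2-oxoglutarate, a family that makes and breaks gibberellins and flavonoids among others, followed at 1.24 with 8 of 21 higher and 4 lower. Response to stress counted 11 of 27 higher and 4 lower, but terms for single stresses did not follow it. Response to cold counted 16 higher and 52 lower of 93, and response to salt stress 17 and 45 of 100. Response to oxidative stress counted 16 and 28 of 65, response to water deprivation 9 and 13 of 40, and response to heat 8 and 8 of 30. The lowest medians were those of photosystem I, at -1.80 with 24 of 25 lower, and photosystem II, at -1.65 with 26 of 29 lower, each with 0 higher. Among other low terms, plastoglobule, a lipid body of the thylakoid, counted 2 higher and 32 lower of 41. The term rRNA processing, whose loci are in part plastid ones, counted 0 higher and 52 lower of 66, with a median of -0.92. Lyase activity counted 4 higher and 17 lower of 26. Terms share loci, so these counts are not independent of each other.

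**Figure D4:**
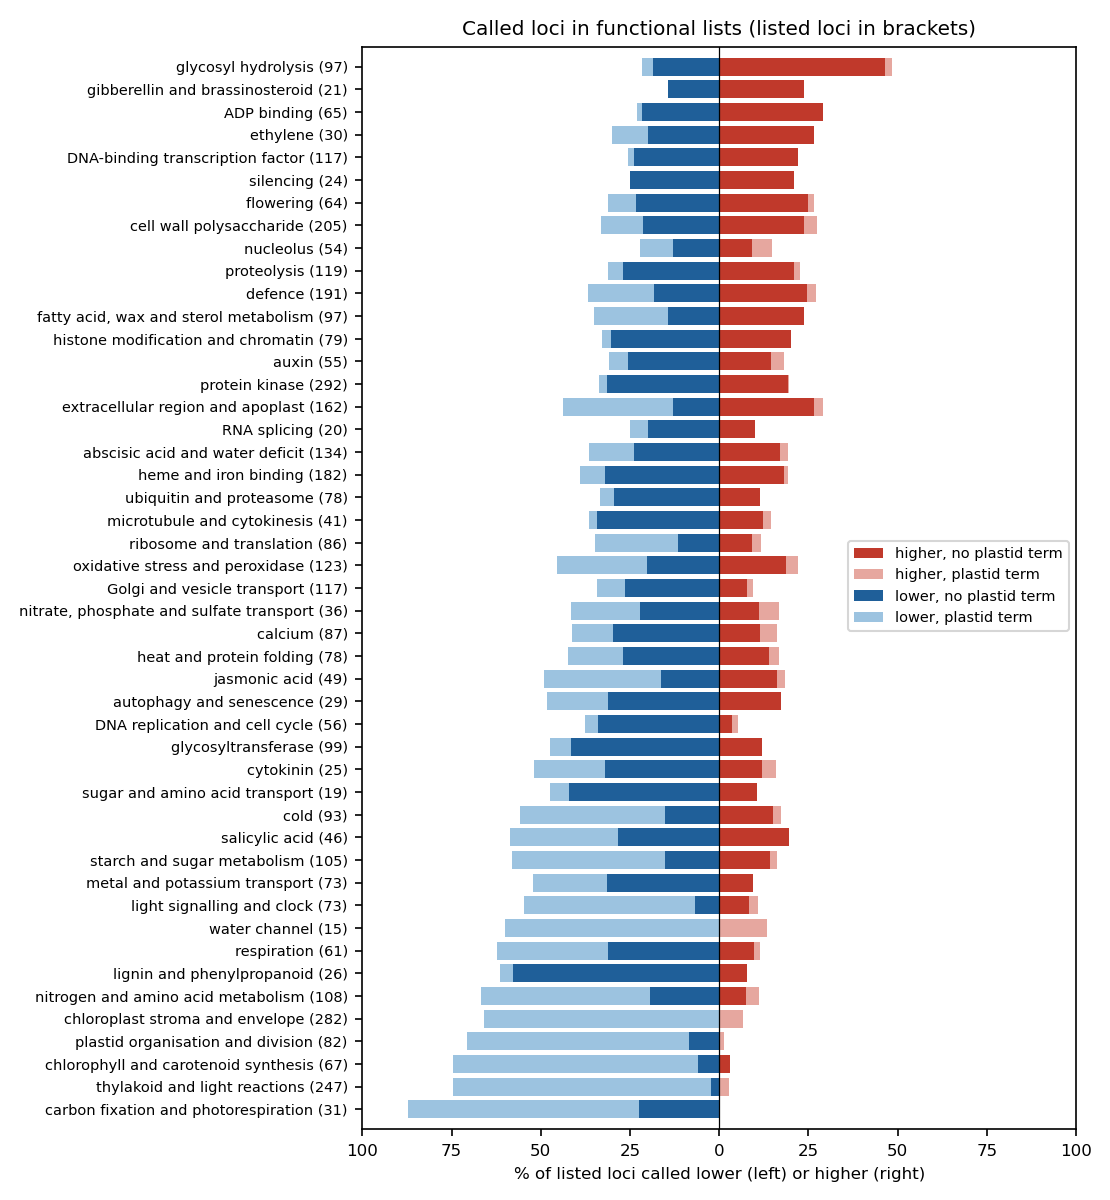
Percent of listed loci called lower (bars to the left) and higher (bars to the right) in each functional list with at least 15 listed loci, with loci that carry a plastid component term in pale shades. Glycosyl hydrolysis has the longest bar to the right with 47 of 97 loci higher, and carbon fixation and photorespiration the longest to the left with 27 of 31 lower.

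In carbon fixation and photorespiration 27 of 31 listed loci fell and 0 rose, or 87.1% lower. The Rubisco small subunit locus RBCS, part of the enzyme that fixes carbon dioxide, fell from 4307 to 1193 FPKM. The 4 glycolate oxidases, which handle the photorespiratory product in peroxisomes, all fell, and among them GLO1 fell from 76.0 to 34.5 FPKM and GLO5 from 101 to 51.2 FPKM. Catalase BGIOSGA011520, which removes the hydrogen peroxide formed there, fell from 59.2 to 16.8 FPKM. All 4 listed malate dehydrogenases fell, with BGIOSGA009738 going from 91.1 to 47.4 FPKM. Phosphoribulokinase BGIOSGA008865, which regenerates the Rubisco substrate, fell from 234 to 111 FPKM. Chlorophyll and carotenoid synthesis counted 50 of 67 lower and 2 higher, among them the magnesium chelatase subunit CHLH, which fell from 244 to 78.8 FPKM, and phytoene synthase PSY1, which fell from 24.1 to 9.44 FPKM.

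Respiration and nitrogen metabolism were mostly lower, with single enzymes higher. Respiration counted 7 higher and 38 lower of 61, and outside plastid terms 6 and 19. Fructose-bisphosphate aldolase BGIOSGA023247 of glycolysis fell from 77.6 to 36.2 FPKM. Malate synthase BGIOSGA014839, a glyoxylate cycle enzyme that turns fat-derived carbon into malate, rose from 0.375 to 4.87 FPKM. Ubiquinol oxidase BGIOSGA014422, the alternative oxidase of plant mitochondria, rose from 0.437 to 4.43 FPKM. Nitrogen and amino acid metabolism counted 12 higher and 72 lower of 108, and outside plastid terms 8 and 21 of 41. Glutamine synthetase BGIOSGA014182, which assimilates ammonium, fell from 165 to 84.8 FPKM, while glutamate dehydrogenase GDH2 rose from 6.34 to 11.2 FPKM. BGIOSGA010942, with the term for asparagine synthesis, rose from 0.878 to 14.8 FPKM. Starch and sugar metabolism counted 17 higher and 61 lower of 105, or 58.1% lower. Of its lower loci 45 carried a plastid term, and outside plastid terms 15 were higher and 16 lower of 46. The term starch biosynthetic process counted 2 higher and 39 lower of 51. Some enzymes that break down sucrose and starch rose. Sucrose synthase BGIOSGA010570, which splits sucrose, rose from 91.9 to 140 FPKM. Of 4 beta-amylases, which release maltose from starch, 2 rose, with BGIOSGA011829 going from 2.18 to 8.96 FPKM.

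Enzymes that cut sugar polymers rose more than they fell. Glycosyl hydrolysis counted 47 of 97 higher and 21 lower, or 48.5% and 21.6%, with a median log2 ratio of 0.83, and with a pseudocount of 1 a median of 0.51. Alpha-galactosidase BGIOSGA033189 rose from 39.5 to 80.9 FPKM. Beta-galactosidases, which trim galactose from cell wall polymers, counted 3 of 5 higher and 0 lower, and the most abundant, BGIOSGA023124, rose from 38.5 to 59.4 FPKM. Xyloglucan endotransglucosylase/hydrolases, which cut and rejoin wall xyloglucan, counted 5 of 10 higher and 2 lower. The most abundant of these, BGIOSGA028246, rose from 109 to 185 FPKM, whereas BGIOSGA014404 fell from 3.97 to 0.346 FPKM. The class IV chitinase Cht4, which cleaves fungal chitin, rose from 6.39 to 20.9 FPKM.

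Wall and surface synthesis did not move as a block. The cell wall list counted 56 higher and 68 lower of 205, or 49 and 44 outside plastid terms. Its 3 most abundant called loci were Rubisco small subunits, which carry a cell wall or apoplast term in the table. Cellulose synthase CESA1 fell from 78.6 to 52.9 FPKM, and UDP-glucose 6-dehydrogenase BGIOSGA013592, which supplies wall sugars, fell from 90.4 to 54.9 FPKM. 3-ketoacyl-CoA synthases, which elongate the fatty acids of waxes, counted 3 of 5 higher and 0 lower, with BGIOSGA033118 rising from 1.56 to 6.30 FPKM and BGIOSGA023202 from 1.29 to 5.73 FPKM. Lignin and phenylpropanoid loci counted 2 higher and 16 lower of 26. Chalcone synthase CHS1 and chalcone isomerase CHI, the opening steps of flavonoid synthesis, fell from 61.1 to 36.6 FPKM and from 96.4 to 64.4 FPKM. Phenylalanine ammonia-lyase BGIOSGA014705, which opens the phenylpropanoid pathway, fell from 17.8 to 10.7 FPKM.

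Protein families showed which names moved one way. Of 33 loci named glycosyltransferase, which attach sugars to hormones and other small molecules, 4 rose and 18 fell. The most abundant, BGIOSGA021421, fell from 33.5 to 6.37 FPKM. Peroxidases were split, with 11 of 27 higher and 9 lower. The peroxidases that rose were at most 6.61 FPKM in wild type, and those that fell were at 4.60 to 96.0 FPKM. Of 6 loci named only as lipid-transfer proteins, small secreted carriers of lipids, 5 fell and 0 rose, such as BGIOSGA036883 from 160 to 49.9 FPKM. The 2 loci with the symbol LTP110-B rose, the one on chromosome 11 from 17.0 to 79.8 FPKM and the one on chromosome 12 from 12.7 to 38.0 FPKM. These near-identical names may mark copies between which reads were divided. Potassium transporters counted 5 higher and 5 lower of 12. Families were defined after the data were seen, from identical protein names.

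**Figure D5:**
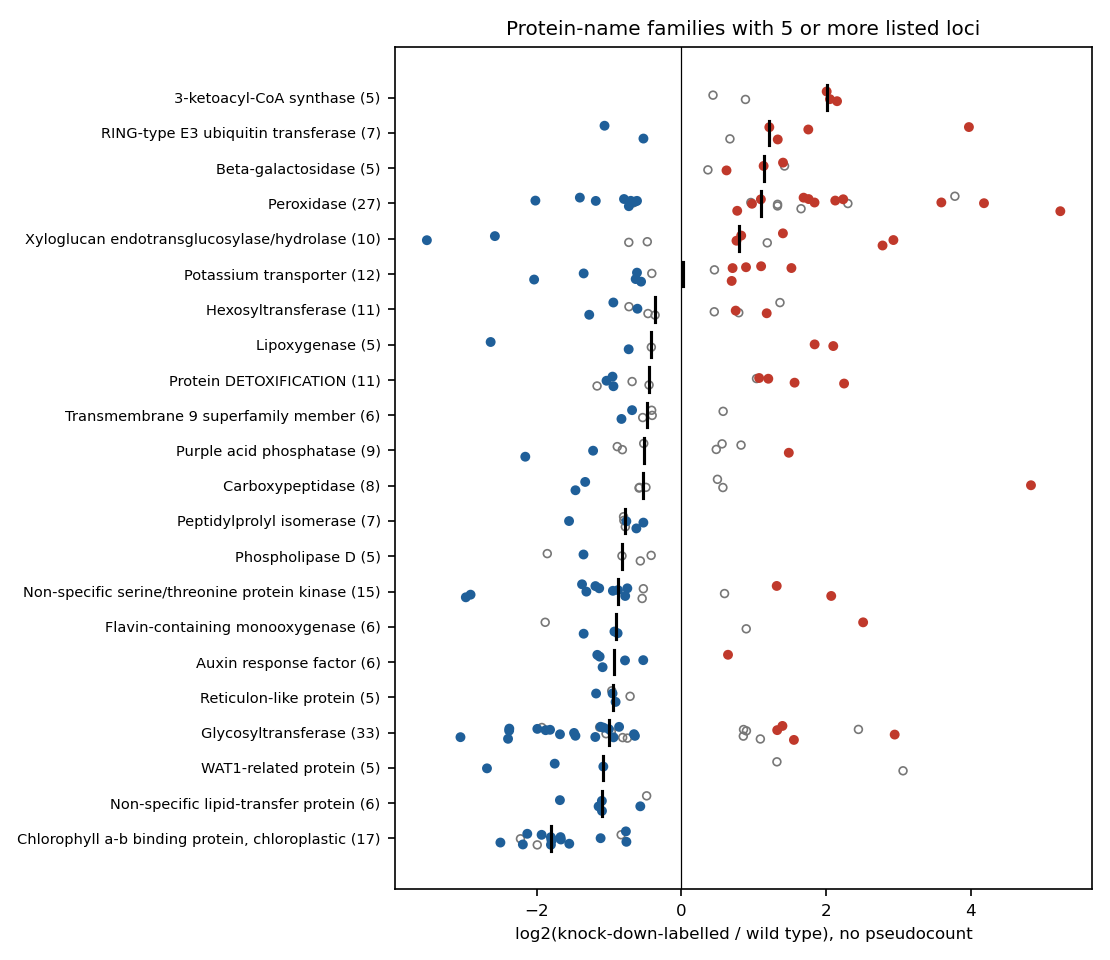
Log2 ratio without pseudocount of each locus in protein-name families with at least 5 listed loci (filled red called higher, filled blue called lower, open not called), with a black bar at the family median. The 3-ketoacyl-CoA synthases have the highest median, at 2.01, and the chlorophyll a-b binding proteins the lowest, at -1.80.

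Cytokinin and salicylic acid loci were mostly lower, and auxin loci lay near the background. The type-A response regulators RR4, RR9 and RR10, which are induced by cytokinin and damp its signal, fell from 27.2 to 13.3, from 25.6 to 7.88 and from 36.8 to 9.77 FPKM. The cytokinin list counted 4 higher and 13 lower of 25, or 52.0% lower, and outside plastid terms 3 and 8 of 17. Of 6 loci named auxin response factor, transcription factors that read auxin, 5 fell and 1 rose, and ARF23 also fell, from 14.5 to 6.39 FPKM. IAA13, of the repressor family that binds these factors, fell from 15.3 to 8.04 FPKM, and in the over-expression table the values were 15.98 and 33.7 FPKM. The auxin list counted 10 higher and 17 lower of 55, or 18.2% and 30.9%. Salicylic acid loci counted 9 higher and 27 lower of 46, or 58.7% lower, and outside plastid terms 9 and 13 of 32. Jasmonic acid loci counted 9 and 24 of 49, and outside plastid terms 8 and 8 of 27. Ethylene loci counted 8 and 9 of 30. Abscisic acid and water deficit loci counted 26 and 49 of 134, or 19.4% and 36.6%. Gibberellin and brassinosteroid loci counted 5 higher and 3 lower of 21, with WRKY71, a repressor of gibberellin responses in rice aleurone, rising from 1.60 to 9.50 FPKM.

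Defence and signalling loci went in both directions. The defence list counted 52 higher and 70 lower of 191, or 27.2% and 36.6%, and 47 and 35 outside plastid terms. Single terms differed in direction. Defense response counted 21 higher and 12 lower of 56, defense response to bacterium 13 and 40 of 74, and response to chitin 3 and 15 of 24. WRKY45-2, of a family that controls defence genes, rose from 9.94 to 24.0 FPKM. MLO, a membrane protein whose family includes powdery mildew susceptibility factors in barley, fell from 24.99 to 10.8 FPKM. Loci with ADP binding, the term of nucleotide-binding resistance proteins, counted 19 higher and 15 lower of 65, and their median log2 ratio of 0.68 was 0.34 with a pseudocount of 1. Protein kinases counted 57 higher and 98 lower of 292, close to the background shares. Calcium loci counted 14 higher and 36 lower of 87, among them the more abundant locus with the calmodulin symbol CAM1-1, which fell from 27.9 to 12.96 FPKM, and CML1, which fell from 49.9 to 24.3 FPKM. Superoxide dismutase SODCC1, which removes superoxide, fell from 44.4 to 23.5 FPKM.

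Transcription factors counted 26 higher and 30 lower of 117. SNAC1, a drought-responsive NAC factor, rose from 3.17 to 28.8 FPKM. Homeobox-leucine zipper factors were split, with HOX4 falling from 27.5 to 11.4 FPKM, HOX16 from 70.9 to 49.1 FPKM and HOX25 rising from 1.17 to 5.23 FPKM. MYBS2, a regulator of sugar-responsive amylase genes, fell from 20.5 to 7.52 FPKM. The silencing list of 24 loci, both polymerases included, counted 5 higher and 6 lower. Its most abundant fall was adenosylhomocysteinase BGIOSGA034046, which clears the by-product of methylation reactions, from 223 to 131 FPKM. Histone modification and chromatin loci counted 16 higher and 26 lower of 79.

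Lists of basic cell functions differed among themselves, and no difference from the background was tested. DNA replication and cell cycle counted 3 higher and 21 lower of 56, or 5.36% and 37.5%, with the probable histone H2A.2 locus BGIOSGA025900 falling from 46.2 to 20.7 FPKM. Microtubule and cytokinesis counted 6 and 15 of 41. Tubulin alpha chain BGIOSGA025994 fell from 78.0 to 43.8 FPKM, and in the over-expression table the values were 81.3 and 163 FPKM. Golgi and vesicle transport counted 11 higher and 40 lower of 117, or 9.40% and 34.2%. Autophagy and senescence counted 5 higher and 14 lower of 29, or 17.2% and 48.3%, and outside plastid terms 5 and 9 of 21. The autophagy proteins that coat the forming autophagosome fell, with ATG8A going from 60.3 to 28.5, ATG8B from 18.6 to 6.59 and ATG8C from 40.9 to 23.8 FPKM. Ribosome and translation counted 10 higher and 30 lower of 86, of which 8 and 10 lay outside plastid terms. Nucleolus counted 8 higher and 12 lower of 54, RNA splicing 2 and 5 of 20, and ubiquitin and proteasome 9 and 26 of 78. Proteolysis counted 27 higher and 37 lower of 119. Heat and protein folding counted 13 higher and 33 lower of 78, including HSP81-1, a chaperone of the HSP90 class, which fell from 30.4 to 18.5 FPKM.

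Transport loci were called lower at or above the background share, depending on the term. The term transmembrane transport counted 25 higher and 54 lower of 139, or 18.0% and 38.8%. The term transport counted 23 and 66 of 145, or 45.5% lower, and transporter activity 16 and 45 of 92, or 48.9% lower. Metal and potassium transport counted 7 higher and 38 lower of 73, or 52.1% lower, with a median log2 ratio of -0.95. Outside plastid terms it counted 7 and 23 of 54, and the potassium transporters by name were split evenly. Nitrate, phosphate and sulfate transport counted 6 higher and 15 lower of 36, and outside plastid terms 4 and 8 of 22. Sugar and amino acid transport counted 2 higher and 9 lower of 19, or 2 and 8 of 17 outside plastid terms. The sugar exporter SWEET1B fell from 8.75 to 2.43 FPKM. Nicotianamine synthase NAS2, which makes an iron chelator and was taken as a root marker, rose from 0.618 to 4.02 FPKM. It was the 1 called of the 2 root markers listed. Both floral markers listed, MADS14 and MADS18, fell, and 0 seed or pollen markers were listed. The part of tissue makeup in these results was not tested.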

How the data were processed

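The authors used Cufflinks 2.2.1 and Cuffdiff, per the submitters' processing notes. For the aligner, the build and the version of Cuffdiff, the sources used here give nothing. The deposited FPKM values pool the libraries of a group, per the file headers, so depth per library is unknown. Deposited p-values and q-values are the authors'. The deposited log2 fold change was recomputed from FPKM without a pseudocount, with gaps of at most 1.28e-05, and again with a pseudocount of 1. Python 3.11.15, pandas 2.3.3 and matplotlib 3.10.9 were used. The number of tests was recovered from q over p and tested on simulated data. It implies 279 loci at p of at most 0.05 that are not analysed here. Columns of single libraries left unassigned numbered 0.

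Members, lists and level classes (edges at 1, 5, 20 and 100 FPKM) were chosen with earlier results of these data known. Named loci were the polymerases, the 10 largest called rises and falls with a name, up to 3 per list by mean FPKM, and the largest per level class. Added after the values were seen were protein families, structural RNAs, the plastid split, loci beyond 16-fold and further list members outside plastid terms. No test was run on lists, because groups were pooled. The reference gene table was not used.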

Additional observations from a re-analysis of the deposited data

How the results depend on the processing

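No paired analysis was possible because the table holds 1 pooled value per group, and leaving out a replicate was not run for the same reason. At q under 0.01, 445 loci were higher and 963 lower. The counts per list fell by over 1.5 times at that threshold in 53 of 84 cases, for example auxin from 10 to 2 higher and 17 to 8 lower, ADP binding from 19 to 7 higher and 15 to 6 lower, and DNA replication and cell cycle from 21 to 9 lower. At 2-fold or more, 505 were higher and 760 lower. Centring on the listed median, which kept the same calls and only shifted the zero, gave 895 higher and 1462 lower. That median comes from loci listed at p of at most 0.05, so centring on it is no check of normalization. A pseudocount of 1 moved the median log2 ratio of all listed loci from -0.58 to -0.48, that of loci under 1 FPKM to 0.40 and that of loci from 1 to 5 FPKM to -0.44. A pseudocount of 0.1 gave 0.96 for loci under 1 FPKM. Over called loci alone the medians were -0.73 for all loci, 1.32 under 1 FPKM, -0.78 from 1 to 5 FPKM, -0.73 from 5 to 20 FPKM and -0.70 from 20 to 100 FPKM. The median of the gibberellin and brassinosteroid list changed sign to 0.76 over called loci alone. The median of the HVA22-like family changed sign to -0.016 with a pseudocount of 1, an alternative chosen after seeing the data. The cause was not tested. Loci with 1 gene identifier only gave the same medians within 0.1. Depth is unknown, so ratios of loci under 1 FPKM are the least certain.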
